A study of Mus musculus with 28 samples.

Results

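The genes described here are a module of interferon-induced antiviral genes, nucleic acid sensors and interferon signalling factors in mouse thymocytes. The members were taken by symbol from a list of 47 genes, and 46 of them are rows of the count table, which holds 24421 symbols. Rnf213 was not analysed here. All 46 passed the filter on low counts and were tested among 14371 genes.

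RNA was sequenced from 28 libraries in 6 groups, made of 3 genotypes at 2 stages of double-negative thymocytes, which lack both CD4 and CD8. The stages are DN2/3 and the later DN4. Wild type is C57BL/6 and has 4 libraries at each stage. Lmo2tg carries the Lmo2 transgene and has 5 libraries at each stage. The third genotype, called Ldb1-KO here, carries the same transgene and in addition a deletion of floxed Ldb1, also with 5 libraries at each stage, so Lmo2tg is its control. Lmo2 codes for a LIM-only protein that drives T-cell leukaemia when it stays on in thymocytes, and Ldb1 codes for the partner protein that LIM-only proteins bind. The sources used here do not give the transgene's promoter, the mice's ages or the Cre line of each Ldb1-KO library. The labels name Lck-Cre, Rag1-Cre and IL-7Ra-Cre mice for the series, as well as a Rosa26 reporter for Cre. They also call the cells CD4 T cells beside the double-negative stage names, and do not say that replicates came from separate animals, so p-values measure the spread between these libraries. The wild-type library names follow another pattern than the transgenic ones, so a technical difference between the library series and the genotype difference from wild type cannot be told apart.

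Type I interferons bind the receptor chains Ifnar1 and Ifnar2, whose kinases Jak1 and Tyk2 activate Stat2. Stat2 joins Irf9, and their complex binds the interferon-stimulated response element (ISRE) in front of antiviral genes. Interferon gamma acts through its own receptor and another site, the gamma-activated sequence. The genes that respond include sensors of foreign RNA and DNA, enzymes that block viral replication, and feedback genes such as Irf7, a factor that drives further interferon synthesis, and Usp18, which removes Isg15 from proteins and damps the receptor. Lymphocytes express many of these genes at a low level without infection.

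The element that defines this pathway can be read in the promoters. RefSeq windows (GRCm38.p6), from 250 bases before to 50 bases after the start of transcription, were found for 37 of the 47 listed genes. The ISRE core, read as GAAA then NN then GAAA and searched on both strands, was present in windows of 15 of the 37 (40.5%), beside 3.99% of the 27025 genes with a window and 3.44% of all 32851 windows. The gamma-activated sequence TTCNNNGAA was present for 9 of 37 members (24.3%), beside 9.55% of all genes. CANNTG, the E-box that bHLH partners of Lmo2 can bind, was present for 81.1% of members and 75% of all genes, and GATA for 51.4% and 61.5%. The windows of 4 members are shown up to the start site, because the results turn on these genes, with ISRE core matches in capitals. Oas1a, an enzyme of the antiviral oligoadenylate pathway, has 2 overlapping matches that begin 20 and 14 bases before the start. Slfn5, a Schlafen gene with the largest rise in Lmo2tg DN4 among members at 1 CPM or more, has 1 match, 155 bases before the start. Stat2 has 1 on the other strand, which appears as TTTCAGTTTC on the strand shown. Ifi44, an interferon-induced gene of unknown biochemical role with the largest fall in Lmo2tg DN2/3, has no match in this window. A match of letters is a description of the window and not evidence of binding.
Oas1a promoter, chr5:120907526-120907775, strand -: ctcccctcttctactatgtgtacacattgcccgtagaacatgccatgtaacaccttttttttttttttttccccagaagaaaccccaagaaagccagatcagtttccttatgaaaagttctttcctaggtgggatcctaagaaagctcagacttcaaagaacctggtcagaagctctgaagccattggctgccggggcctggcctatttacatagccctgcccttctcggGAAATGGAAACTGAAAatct
Slfn5 promoter, chr11:82951852-82952101, strand +: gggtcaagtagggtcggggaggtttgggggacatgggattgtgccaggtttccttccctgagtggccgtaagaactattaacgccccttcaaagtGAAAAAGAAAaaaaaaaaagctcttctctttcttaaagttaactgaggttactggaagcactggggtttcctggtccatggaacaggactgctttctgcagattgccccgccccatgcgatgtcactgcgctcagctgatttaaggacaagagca
Stat2 promoter, chr10:128270248-128270497, strand +: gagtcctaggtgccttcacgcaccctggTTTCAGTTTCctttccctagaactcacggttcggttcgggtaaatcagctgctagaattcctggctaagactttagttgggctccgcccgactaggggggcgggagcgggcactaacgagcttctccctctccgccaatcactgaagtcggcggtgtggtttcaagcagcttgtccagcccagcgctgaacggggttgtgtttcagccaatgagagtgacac
Ifi44 promoter, chr3:151749911-151750160, strand -: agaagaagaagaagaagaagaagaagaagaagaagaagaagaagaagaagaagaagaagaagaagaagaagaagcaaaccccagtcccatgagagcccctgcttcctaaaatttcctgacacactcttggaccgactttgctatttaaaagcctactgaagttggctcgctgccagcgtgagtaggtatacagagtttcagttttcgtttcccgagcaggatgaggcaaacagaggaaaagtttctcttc

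Library totals ran from 28.1 to 106.9 M counts. Levels are given as CPM, counts per M counts with TMM-scaled library sizes, and fold changes as log2 values from a single edgeR quasi-likelihood fit of all libraries and all tested genes, with Benjamini-Hochberg adjustment over those genes. Rises and falls are those with an adjusted p below 0.05. Counts of members at an unadjusted p below 0.05 have no share of all genes beside them, as none was computed at that threshold. Counts with a single library left out are also given without that share. Neither kind of count sets the module apart from other genes. Mean Lmo2 was at most 0.272 CPM in wild type and between 30.5 and 45.4 CPM in the 4 transgenic groups. Mean Ldb1 was 397 CPM in Lmo2tg DN2/3 and 345 CPM in Lmo2tg DN4, beside 98.1 CPM in Ldb1-KO DN2/3 and 25.7 CPM in Ldb1-KO DN4, so its reads were lowered and not lost. The summed level of 10 thymocyte markers was between 5936 and 8710 CPM in every library. Siglech, a defining marker of plasmacytoid dendritic cells, which make much interferon, was at 0 in all 8 wild-type libraries. It did not exceed 0.386 CPM in any other. The list of 7 plasmacytoid dendritic markers that holds Siglech was not near 0. It summed to 103 to 193 CPM in wild-type DN4 and to 94.9 to 677 CPM in Lmo2tg DN4. There 4 of 5 tested markers were higher than in wild type and 1 lower, so Siglech does not stand for the list. Lmo2tg DN4 replicate 1 and Ldb1-KO DN4 replicate 2 stood apart with the highest Cd4 (422 and 329 CPM) and Cd8a (742 and 713 CPM), markers of the next stage. In bulk samples, fewer cells that express a gene and less of its RNA per cell cannot be told apart.

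In wild-type cells the module was lower at DN4 than at DN2/3. Of the 46 members, 34 fell and 1, Ifit2, rose, while 24.8% of all tested genes fell and 21.1% rose. The median log2 change was -1.35 over the members and -0.06 over all tested genes. The fall was over 2-fold for 26 of the 34, and for 40 of 46 members every DN4 library lay below every DN2/3 library, as for 29.2% of all tested genes. Of the 34 falls, 26 held when any single library was left out. Without the library labelled wild type DN4 replicate 3, 27 members were called in all, the fewest. Same-numbered libraries of the 2 stages deviated together, and a fit with the replicate number as a block within genotype called 44 members, 43 of them lower, beside 62.1% of all tested genes called. Slfn5, Sp100, Cmpk2 and Ifit3 fell in that fit and not in the one of all groups without the block.

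By role, the fall without the block covered 4 of 5 signalling genes. Irf7 was 20.1, 22.2, 24.2 and 21.5 CPM in the 4 wild-type DN2/3 libraries and 7.79, 7.56, 7.77 and 7.40 CPM at DN4. All DN4 values lay below all DN2/3 values (log2 change -1.53, SE 0.39, adjusted p = 0.00243, edgeR). Irf9 went from 55.3, 64.7, 65.6 and 61.8 CPM to 26.9, 34.8, 31.6 and 32.3 CPM, also without overlap (-0.98, SE 0.27, adjusted p = 0.00468). Stat2 went from 89.4, 90.4, 93.0 and 102 CPM to 59.0, 56.6, 58.4 and 59.8 CPM (-0.68, SE 0.17, adjusted p = 0.00196). These are the factors that carry and extend the interferon signal. The fifth, Usp18, did not pass the test (13.6 ± 1.41 CPM, SD, n = 4, at DN2/3 and 8.36 ± 2.13 CPM, n = 4, at DN4, adjusted p = 0.19), and with the block it fell by 0.73 on the log2 scale (adjusted p = 0.00749). The fourth call was Irf1, a factor that also acts on interferon genes (-0.66, SE 0.14, adjusted p = 0.000532).

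Of the 7 sensors, 6 fell. Dhx58, a regulator of RNA sensing that resembles RIG-I, went from a mean of 26.5 ± 2.05 CPM (SD, n = 4) to 6.82 ± 0.63 CPM (-1.96, SE 0.27, adjusted p = 5.54e-06, edgeR). Ddx58, which codes for the RNA sensor RIG-I, went from 63.6 ± 6.62 to 24.6 ± 5.10 CPM. Ifih1, another sensor of double-stranded RNA, went from 37.2 ± 6.41 to 11.3 ± 1.82 CPM. Zbp1, a sensor of unusual nucleic acid helices linked to cell death, went from 27.8 ± 2.47 to 7.38 ± 1.88 CPM. Tmem173, the adaptor STING of the DNA-sensing route, went from 56.1 ± 6.94 to 28.2 ± 4.71 CPM. Each of these genes had no DN4 library as high as any DN2/3 library. Eif2ak2, which codes for a kinase that stops translation when it binds double-stranded RNA, was the sensor not called (-0.40, SE 0.29, adjusted p = 0.259) without the block, and with it the adjusted p was 0.0126.

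Of the 20 antiviral effectors, 15 fell. The GTPase genes Mx1 and Mx2, of a family that blocks viral replication, lie beside each other on chromosome 16 of mm10. Mx1 is at 97447035-97462907, minus strand, and Mx2 at 97535308-97560900, plus strand. Whether the alleles of these mice make working proteins cannot be read from the counts. Mx1 was 4.55, 3.94, 5.04 and 3.95 CPM at DN2/3 and 0.820, 1.12, 0.729 and 0.824 CPM at DN4. Mx2 was 4.99, 5.41, 6.67 and 4.63 CPM at DN2/3 and 0.864, 1.13, 1.33 and 1.496 CPM at DN4. For both genes the highest DN4 library was far below the lowest DN2/3 library (log2 change -2.32 and -2.17, adjusted p = 0.00204 and 0.000381, edgeR). Oasl2, a relative of the oligoadenylate synthetases, was 16.1, 19.5, 21.6 and 15.6 CPM at DN2/3 and 2.93, 2.96, 1.90 and 2.13 CPM at DN4 (-2.87, SE 0.57, adjusted p = 0.00027). Oas1a was 7.49, 7.36, 10.01 and 8.99 CPM at DN2/3 and 1.70, 2.24, 2.17 and 2.83 CPM at DN4 (-1.92, SE 0.56, adjusted p = 0.00691). Oas1g, its neighbour, had 43 counts in the DN2/3 libraries and none at DN4, at least 12.9-fold lower against a floor of 3 counts over the DN4 group. Oas1a and Oas1g share 40.6% and 31.0% of their 101-base stretches, so the split of reads between them is uncertain. Trex1, which degrades stray DNA, was not called in this or any genotype comparison, and 91.7% of its 101-base stretches are shared with the overlapping gene Atrip, so its reads are uncertain too. Ifit2, of a family that binds foreign RNA, was the exception, with 20.7 ± 3.36 CPM at DN2/3 and 40.2 ± 7.44 CPM at DN4 (0.96, SE 0.24, adjusted p = 0.00187).

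Of the 5 tested genes for protein conjugation, 2 fell, Dtx3l (-1.44, SE 0.27, adjusted p = 0.000167, edgeR) and Parp9, and Herc6, Isg15 and Trim25 were not called without the block (with it, adjusted p = 0.0137, 0.000561 and 0.00748), and of 9 other induced genes 7 fell. Dtx3l and Parp9, a ubiquitin ligase and its partner, are read from opposite strands on chromosome 16 and overlap over 8% and 9.4% of their exon bases. Ifi44 (chromosome 3, 151730922-151749960 on mm10, minus strand) was 3.53, 7.45, 7.35 and 7.90 CPM at DN2/3 and 0.146, 0.658, 0.444 and 0.786 CPM at DN4 (-3.68, SE 0.74, adjusted p = 0.000302, edgeR). The first DN2/3 library was the lowest of its group and still lay above all DN4 libraries. The ISRE core was in a window of 11 of 25 members that fell and of 4 of 11 that did not, among those with a window. Summed levels of the plasmacytoid dendritic list were 209 to 276 CPM at DN2/3 and 103 to 193 CPM at DN4, those of the thymic stroma list 52.6 to 66.5 and 11.6 to 15.9 CPM, and those of the myeloid list 17.4 to 24.2 and 0.349 to 0.482 CPM. Sums were higher at DN4 for the natural killer list (144 to 188 and 363 to 506 CPM, 2 of 4 tested markers higher). The double-positive list was higher too (9.32 to 15.2 and 227 to 367 CPM, 4 of 4 higher). The mature T-cell list had a lower sum (714 to 948 and 190 to 304 CPM), with 2 of 5 markers higher and 2 lower. So did the B-cell list (39.9 to 42.6 and 10.8 to 13.9 CPM, 2 of 6 lower). The part of all these markers in the fall was not tested.

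**Figure D1:**
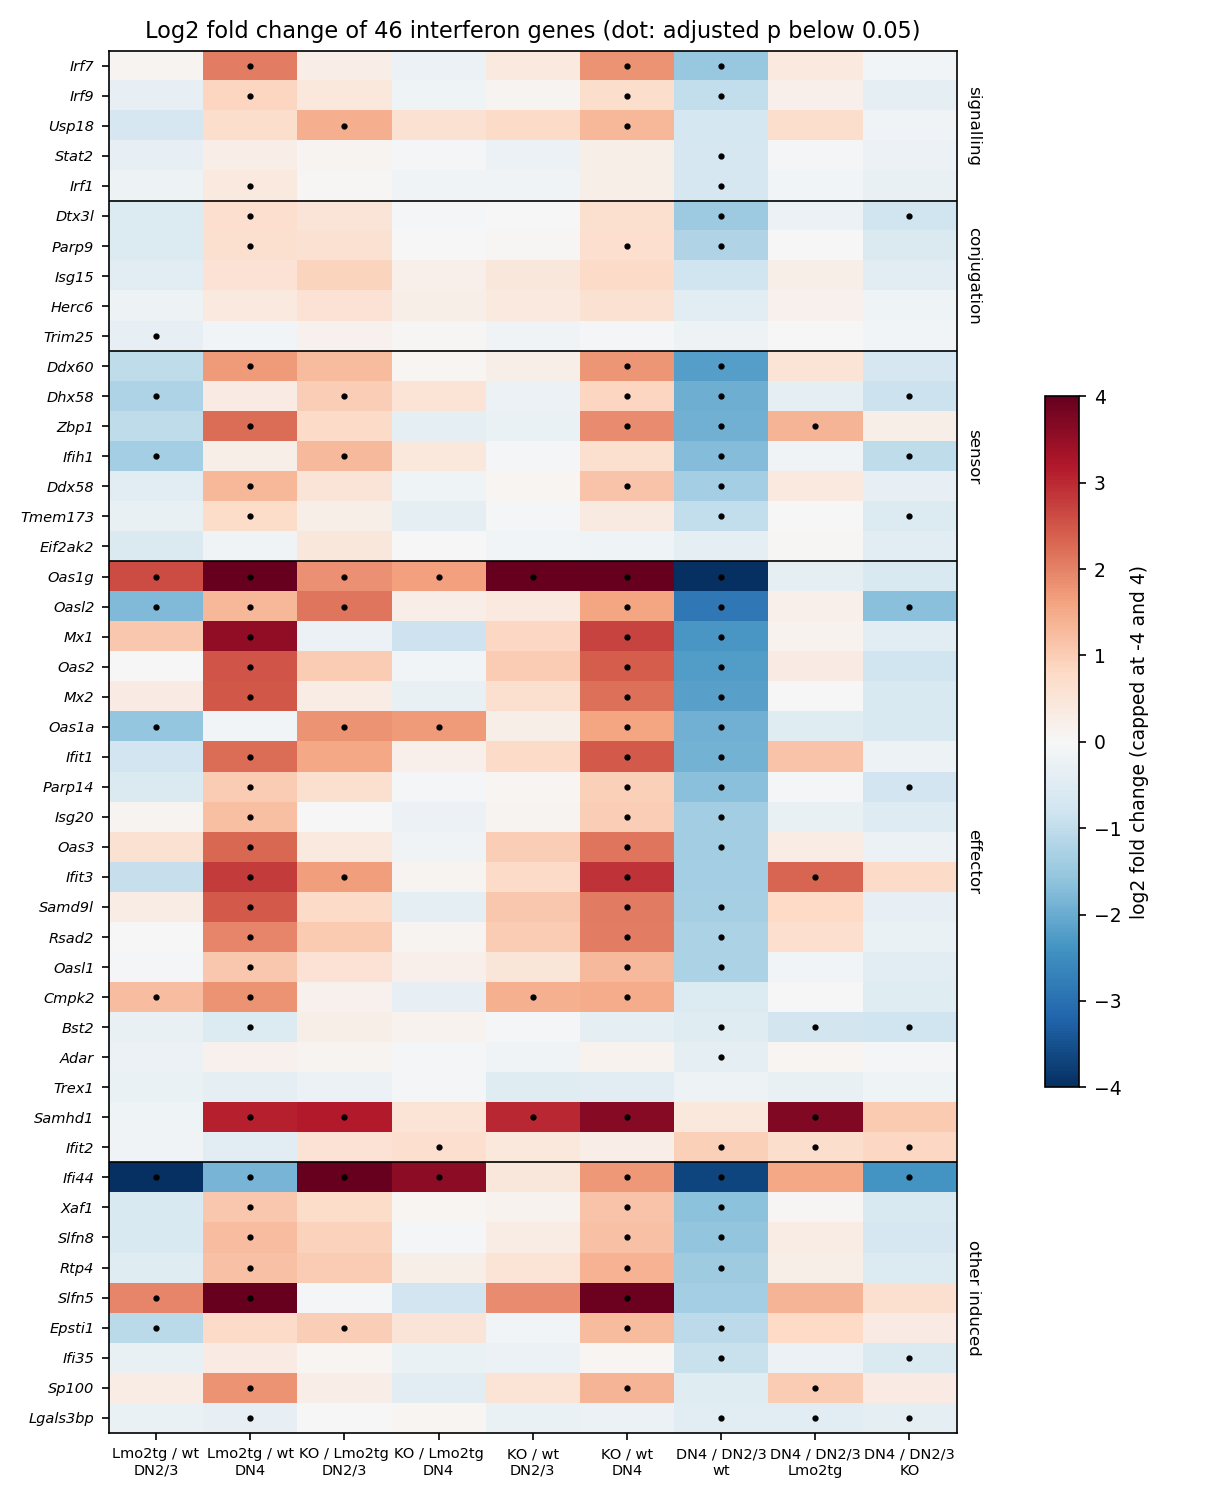
Log2 fold change (colour, capped at -4 and 4) of each of the 46 members (rows, by role) in 6 genotype and 3 stage comparisons (columns, where wt is wild type and KO is Ldb1-KO), with a dot where the adjusted p was below 0.05. The column for stage in wild type has 34 falls, and both columns against wild type at DN4 are mostly rises, 29 for Lmo2tg and 31 for Ldb1-KO; Oas1g has 0 counts in wild-type DN4, so its fitted values there are no measure of size.

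At DN4 the Lmo2 transgene went with a higher level of most of the module. Against wild type, 29 of the 46 members rose and 3 fell in Lmo2tg DN4, while 28.9% of all tested genes rose and 23.5% fell, 52.4% in all. The median log2 difference was 1.04 over the members and 0.07 over all tested genes. Among the members that rose, 20 kept their call without any single library, and without Lmo2tg DN4 replicate 1, 22 members were called. For 8 of 46 members every Lmo2tg library was above every wild-type library, a share near the 16.1% of all tested genes. With only the 2 compared groups in the fit, 18 members were called, all of them higher, 39.1%. Of the 13328 genes tested in that fit 37.1% were called, 2919 higher and 2028 lower.

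Among members at 1 CPM or more, the 3 largest rises without overlap were in Slfn5, Mx1 and Mx2. Slfn5 (chromosome 11, 82951349-82964840 on mm10, plus strand) codes for a Schlafen protein induced by interferon. It was 1.83, 4.23, 0.650 and 2.49 CPM in wild-type DN4 and 131, 25.1, 88.9, 5.65 and 46.9 CPM in Lmo2tg DN4 (log2 difference 4.69, SE 0.75, adjusted p = 1.97e-05, edgeR). The lowest transgenic library was still above the highest wild-type library, while the transgenic libraries spanned a wide range. Mx1 was 16.0, 2.42, 22.3, 1.91 and 8.59 CPM in Lmo2tg DN4, all above the highest wild-type value of 1.12 CPM (3.55, SE 0.59, adjusted p = 3.34e-05). Mx2 was 12.9, 2.75, 10.1, 1.82 and 6.498 CPM in Lmo2tg DN4, above the highest wild-type value of 1.496 CPM (2.495, SE 0.44, adjusted p = 6.57e-05). For each of these 3 genes replicates 2 and 4 were the lowest transgenic libraries. Oas1g, at 0 counts in wild-type DN4, had a mean of 0.645 CPM in Lmo2tg DN4, at least 60.2-fold higher against the floor.

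Among signalling genes, 3 of 5 rose. Irf7 was 65.3, 16.8, 30.0, 8.74 and 37.4 CPM in Lmo2tg DN4 against 7.40 to 7.79 CPM in wild type, with no overlap (2.05, SE 0.38, adjusted p = 0.000119, edgeR). Irf9 was 84.5, 33.1, 73.8, 26.1 and 70.3 CPM against 26.9 to 34.8 CPM (0.87, SE 0.26, adjusted p = 0.00663). Replicates 2 and 4 of Irf9 lay within or below the wild-type range. Stat2, at 97.6, 46.5, 75.2, 55.0 and 74.7 CPM against 56.6 to 59.8 CPM, did not pass the test (0.26, SE 0.16, adjusted p = 0.178), and its groups overlapped. Of the sensors 4 of 7 rose, among them Zbp1 (34.8 ± 32.5 CPM, SD, n = 5, against 7.38 ± 1.88, n = 4) and Ddx58 (61.5 ± 41.2 against 24.6 ± 5.10 CPM).

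Of the effectors, 15 of 20 rose and 1, Bst2, fell. Oas2, with a mean of 12.5 ± 10.8 CPM against 2.18 ± 0.595 CPM, and Oas3, with 20.1 ± 13.0 against 4.13 ± 0.839 CPM, make the oligoadenylate signal that activates RNA decay. Ifit3, which binds foreign RNA, ran from 0.574 to 18.6 CPM with a median of 2.16 in Lmo2tg DN4 and from 0.682 to 0.761 CPM in wild type (2.79, SE 0.64, adjusted p = 0.000963, edgeR), and the groups overlapped. Of its 101-base stretches 31.3% are shared with Ifit3b. Samhd1, which limits viruses by degrading nucleotides, was 65.6, 8.04, 9.80, 0.503 and 6.92 CPM against 2.26, 2.80, 0.888 and 2.51 CPM (3.10, SE 0.86, adjusted p = 0.00435), and without replicate 1 the difference was 1.58 with an adjusted p of 0.0632. Oasl2, at 16.4, 2.77, 5.92, 0.957 and 5.07 CPM, was called at 1.33 (SE 0.53, adjusted p = 0.0365), but not when replicate 1 was left out (0.57, adjusted p = 0.321) nor when any single wild-type DN4 library was left out (adjusted p from 0.0521 to 0.0949). Oas1a, at 3.59, 0.696, 2.38, 0.287 and 3.34 CPM, did not differ beyond its spread (-0.12, SE 0.52, adjusted p = 0.86). Bst2, the virus-tethering protein tetherin, had 51.1 ± 15.1 CPM against 73.9 ± 8.64 CPM. Its call was lost without wild type DN4 replicate 3 or Lmo2tg DN4 replicate 1, 2 or 3.

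Ifi44 fell, like Bst2 and Lgals3bp. It was 0.515, 0.0696, 0.0445, 0 and 0 CPM in Lmo2tg DN4 against 0.146 to 0.786 CPM in wild type (log2 difference -1.84, SE 0.73, adjusted p = 0.0358, edgeR). Replicate 1 lay within the wild-type range, and the call was lost without any of 7 single libraries, namely wild type replicates 2, 3 and 4 and Lmo2tg replicates 2, 3, 4 and 5 (adjusted p from 0.0531 to 0.11). Lists of other cell types moved in the same comparison. Of 5 mature T-cell markers 5 were higher in Lmo2tg DN4 (summed level 438 to 1599 CPM against 190 to 304), of 6 B-cell markers 6 (11.6 to 91.2 CPM against 10.8 to 13.9), and of 5 tested plasmacytoid dendritic markers 4 higher and 1 lower (94.9 to 677 CPM against 103 to 193). The myeloid list (1.53 to 9.76 against 0.349 to 0.482 CPM) had 3 of 5 tested markers higher and 0 lower. The double-positive list (379 to 1736 against 227 to 367 CPM) had 2 of 4 higher and 0 lower. The dendritic list (0.527 to 6.23 against 0.279 to 0.472 CPM) had 2 of 4 tested higher and 0 lower. The part of these markers in the rise was not tested. The 2 DN4 libraries with the highest Cd4 can be left out, a choice made after seeing the data. Then 20 of 46 members were higher and 3 lower, 50% in all. Of the 14294 genes tested there 45.6% were called, 3675 higher and 2840 lower.

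At DN2/3 the transgene went with few called changes in the module, while most members had a difference below 0. Of the 46 members 3 rose and 7 fell in Lmo2tg against wild type, while 15.1% of all tested genes rose and 14.4% fell, so the share of members that fell, 15.2%, was near that of all genes. The median log2 difference was -0.31 over the members and 0.01 over all tested genes, and 36 of 46 members were below 0. At an unadjusted p below 0.05, edgeR gave 4 members higher and 14 lower, without a share of all genes at that threshold. The falls were in the sensors Ifih1 and Dhx58, the effectors Oas1a and Oasl2, the ubiquitin ligase Trim25, Epsti1 and Ifi44. The rises were in Oas1g, Cmpk2 and Slfn5. Summed levels of several marker lists were lower in all Lmo2tg DN2/3 libraries than in all wild-type ones. The plasmacytoid dendritic list (79.7 to 146 against 209 to 276 CPM) had 3 of 5 tested markers lower and 1 higher. The myeloid list (3.81 to 12.6 against 17.4 to 24.2 CPM) had 1 of 5 tested lower and 2 higher. The thymic stroma list (15.2 to 23.3 against 52.6 to 66.5 CPM) had 1 of 2 tested lower and 0 higher. The B-cell list (12.8 to 26.5 against 39.9 to 42.6 CPM) had 1 of 6 lower and 0 higher. The sums therefore do not stand for whole lists. The double-positive list was higher (54.2 to 171 against 9.32 to 15.2 CPM), with 3 of 4 markers called. The part of these markers in the result was not tested.

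Ifi44 was nearly absent from Lmo2tg DN2/3. The wild-type libraries held 3.53, 7.45, 7.35 and 7.90 CPM. The Lmo2tg libraries held 0.105, 0.0865, 0, 0 and 0 CPM, where the 5 libraries held 14 counts together (-7.07, SE 0.85, adjusted p = 4.31e-07, edgeR). Oasl2 was 16.1, 19.5, 21.6 and 15.6 CPM in the wild-type libraries, as against 8.48, 5.33, 6.94, 1.84 and 4.15 CPM in Lmo2tg (-1.76, SE 0.51, adjusted p = 0.0098). Oas1a was 7.49, 7.36, 10.01 and 8.99 CPM in the wild-type libraries, as against 4.33, 2.26, 3.67, 0.394 and 3.79 CPM in Lmo2tg (-1.54, SE 0.51, adjusted p = 0.0242). In none of these 3 genes did the groups overlap. Leaving out wild type DN2/3 replicate 3 brought Oas1a to an adjusted p of 0.0586, and leaving out Lmo2tg DN2/3 replicate 2 to 0.0562. Slfn5 was 50.7, 10.003, 23.8, 5.65 and 24.8 CPM in Lmo2tg against 4.57, 5.39, 7.97 and 5.98 CPM in wild type (1.95, SE 0.65, adjusted p = 0.0247), with replicate 4 inside the wild-type range. Its call was lost without wild type DN2/3 replicate 1, 2 or 4 or Lmo2tg DN2/3 replicate 1 (adjusted p from 0.0569 to 0.0942).

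The signalling genes did not pass the test at DN2/3. Irf7 was 36.9, 19.2, 24.0, 11.7 and 27.7 CPM in Lmo2tg against 20.1 to 24.2 CPM in wild type (0.12, SE 0.36, adjusted p = 0.845, edgeR). Irf9 was 67.8, 34.4, 51.8, 33.1 and 61.0 CPM against 55.3 to 65.6 CPM (-0.32, SE 0.25, adjusted p = 0.376). Stat2 was 90.3, 49.3, 75.0, 68.0 and 87.3 CPM against 89.4 to 102 CPM (-0.34, SE 0.16, adjusted p = 0.112). In all 3 the transgenic libraries were the more scattered. The wild-type libraries lay within the transgenic range for Irf7 and Irf9, and for Stat2 only Lmo2tg replicate 1 reached the wild-type range.

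The transgene effect was tested against itself between the stages. The difference was higher at DN4 than at DN2/3 for 30 of 46 members and lower for 0, while 14.7% of all tested genes were higher and 11% lower by this test. The median over the members was 1.57 on the log2 scale and over all tested genes 0.08. Of the 30 members, 17 kept the call without any single library, and without Lmo2tg DN4 replicate 1 alone 17 members were called. With only the compared groups in the fit 18 were called, all higher, 39.1%. Of all genes tested in that fit 15.2% were called, 1344 higher and 802 lower. Without the 2 libraries highest in Cd4 16 members were called, all higher, 34.8%. Of all genes tested there 17.1% were called, 1542 higher and 904 lower. With transgenic replicates 4 and 5 only, 4 members were called, 8.7%, beside 5.58% of all genes tested. The groups that enter this test also enter the comparisons above, so it is no separate evidence. Zbp1 (3.26, SE 0.63, adjusted p = 0.00109, edgeR), Dhx58 (1.55, SE 0.36, adjusted p = 0.00444) and Ddx60, a helicase that aids RNA sensing (2.73, SE 0.67, adjusted p = 0.00688), were among the 6 of 7 sensors called. Irf7 (1.93, SE 0.51, adjusted p = 0.0102) and Irf9 (1.19, SE 0.36, adjusted p = 0.0196) were called and Stat2 was not (0.60, SE 0.22, adjusted p = 0.0514), while with the block within genotype it was (0.58, adjusted p = 0.0001).

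Within Lmo2tg few members changed between the stages. Of 46 members 5 rose and 2 fell, beside 8.32% and 7.04% of all tested genes, and the median log2 change was 0.16. The rises were in Ifit2, Ifit3, Zbp1, Samhd1 and Sp100, and the falls in Bst2 and Lgals3bp. In the fit with the block within genotype 14 members were called, 7 in each direction, beside 38.8% of all tested genes called. Slfn5 then rose (1.16) and Oas1a, Dhx58, Ifi35, Dtx3l and Trex1 fell (-0.28 to -0.63), besides a rise in Epsti1. Without Lmo2tg DN4 replicate 1, 3 members were called in the fit without the block, and without Lmo2tg DN4 replicate 4, 12. None of the 7 calls held in edgeR with only the 2 groups in the fit, where 2.47% of all genes tested were called, or with replicates 4 and 5 only, where 1.41% were.

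**Figure D2:**
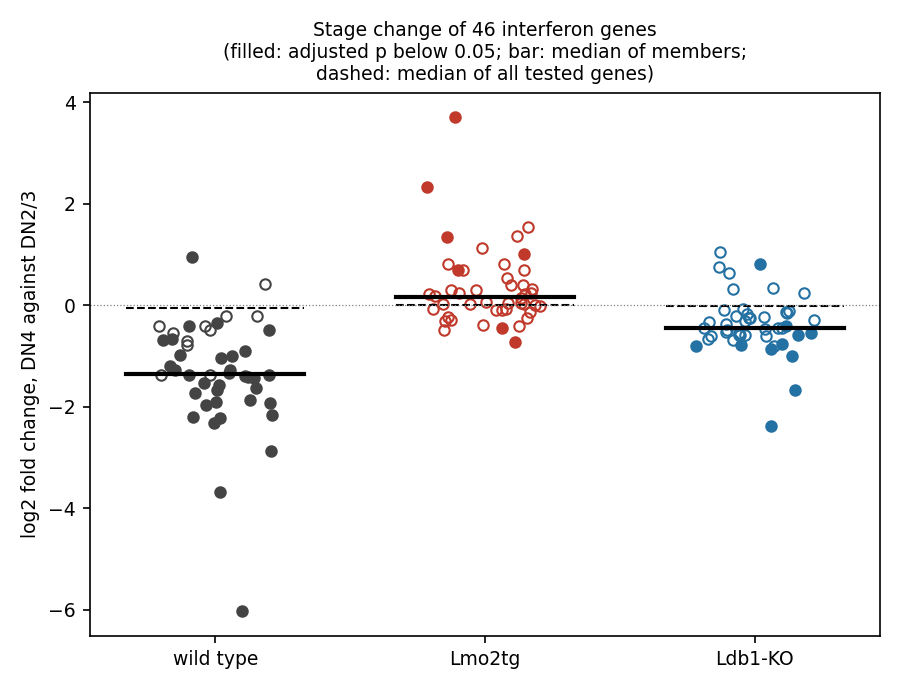
Log2 change from DN2/3 to DN4 of each member (points) in wild type, Lmo2tg and Ldb1-KO, with the median of the members and of all tested genes marked. Wild type has its members centred on -1.35, Lmo2tg on 0.16 and Ldb1-KO on -0.45.

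The Lmo2tg libraries differed from each other across the whole module. The median over the 46 members of log2(CPM + 0.5), after subtracting each member's mean over the 28 libraries, was 0.225 to 0.364 in the wild-type DN2/3 libraries and -1.01 to -0.668 in wild-type DN4. In Lmo2tg DN2/3 it was 0.372, -0.375, 0.0569, -0.849 and -0.0291 for replicates 1 to 5. In Lmo2tg DN4 it was 0.825, -0.592, 0.404, -1.22 and 0.0505. The same libraries were high and low at both stages, replicate 1 being the highest and replicate 4 the lowest, so that Lmo2tg DN4 replicate 4 lay below every wild-type library. In Ldb1-KO the range was 0.121 to 0.849 at DN2/3 and -0.113 to 0.731 at DN4. Transgenic replicates 4 and 5 taken alone with all wild-type libraries, a split chosen after seeing the data, gave 13 members called in Lmo2tg DN4 against wild type, 11 higher and 2 lower. That was 28.3% of members, both directions together. Of the 14160 genes tested in the same split 32.4% were called, 2730 higher and 1860 lower.

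**Figure D3:**
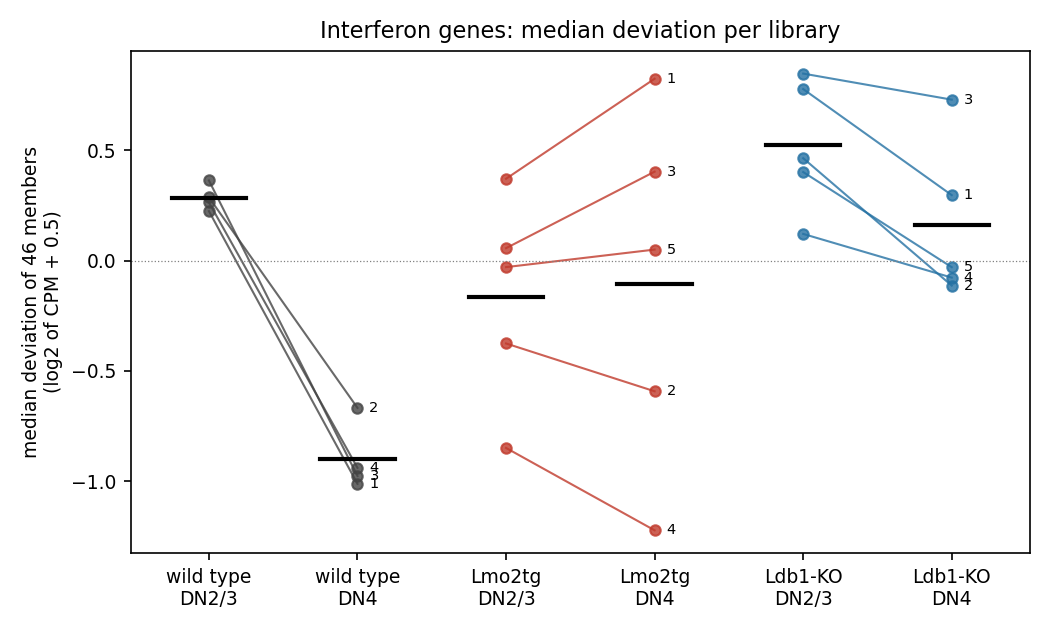
Median over the 46 members of log2(CPM + 0.5) minus the member's mean over 28 libraries, for each library (points with replicate numbers) in the 6 groups. The wild-type points are close together at each stage and the Lmo2tg points spread from -1.22 to 0.825 at DN4.

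With Ldb1 deleted in the transgenic background, part of the module was higher at DN2/3. Against Lmo2tg, 10 of 46 members rose and 0 fell in Ldb1-KO DN2/3 by edgeR, beside 8.87% and 7.22% of all tested genes. At an unadjusted p below 0.05, 21 members rose and 0 fell, without a share of all genes at that threshold. The median log2 difference was 0.58 over the members and -0.01 over all tested genes, and for 11 of 46 members every Ldb1-KO library was above every Lmo2tg library, as for 7.58% of all tested genes. Of the 10 calls, 7 held without any single library. Those of Ifit3 and Epsti1 each depended on several libraries, and that of Oas1g was lost without Ldb1-KO DN2/3 replicate 3 (1.45, adjusted p = 0.074).

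Ifi44 had the largest difference. It was 7.50, 13.6, 10.6, 4.68 and 8.33 CPM in Ldb1-KO DN2/3 against 0 to 0.105 CPM in Lmo2tg (7.52, SE 0.85, adjusted p = 4.68e-07, edgeR). Samhd1 was 6.19, 16.6, 7.94, 13.2 and 19.96 CPM in Ldb1-KO against 3.41, 2.44, 0.220, 0.263 and 0.421 CPM in Lmo2tg (3.18, SE 0.80, adjusted p = 0.00611). Oasl2 was 24.0, 26.9, 35.4, 14.8 and 18.2 CPM in Ldb1-KO against 1.84 to 8.48 CPM (2.15, SE 0.50, adjusted p = 0.00295). For all 3 genes the groups were separate in every library. Oas1a was 10.7, 8.48, 15.6, 7.15 and 8.33 CPM against 0.394 to 4.33 CPM (1.79, SE 0.50, adjusted p = 0.0128). Usp18, the feedback gene of the receptor, ran from 15.7 to 37.2 CPM with a median of 19.0, against 3.64 to 10.9 CPM (1.46, SE 0.39, adjusted p = 0.0102). The sensors Ifih1 (35.3 ± 10.1 against 14.4 ± 4.14 CPM, SD, n = 5) and Dhx58 (22.4 ± 6.29 against 11.2 ± 2.67 CPM) were the other calls that held without any single library. With transgenic replicates 4 and 5 only, Ifih1, Oas1a, Usp18 and Oas1g lost their calls and 6 members were called, 13%, beside 8.38% of all genes tested. With transgenic replicates 1 to 3 only, Samhd1, Epsti1, Ifit3 and Oas1g lost theirs.

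The other signalling genes did not pass the test in this comparison. Irf7 was 34.0, 19.9, 42.8, 21.8 and 24.6 CPM in Ldb1-KO DN2/3 (0.26, SE 0.34, adjusted p = 0.653, edgeR), Irf9 72.7, 57.8, 80.2, 52.7 and 67.2 CPM (0.41, SE 0.24, adjusted p = 0.267), and Stat2 79.7, 74.1, 75.1, 78.8 and 93.0 CPM (0.12, SE 0.15, adjusted p = 0.655). All overlapped with Lmo2tg. Slfn5, at 44.8, 14.4, 26.3, 10.98 and 15.3 CPM, had about the mean of Lmo2tg (22.3 ± 13.8 against 23.0 ± 17.6 CPM, log2 difference -0.04, SE 0.58), and Mx1 likewise overlapped (15.4, 5.67, 8.68, 4.33 and 5.04 CPM, -0.24, SE 0.48, adjusted p = 0.789). This comparison shares its Lmo2tg libraries with the one against wild type, so the genes that are low in these libraries enter both. Myeloid markers summed to 20.4 to 31.8 CPM in Ldb1-KO DN2/3 against 3.81 to 12.6 CPM in Lmo2tg. Thymic stroma markers summed to 46.6 to 65.5 against 15.2 to 23.3 CPM. The plasmacytoid dendritic list summed to 165 to 294 against 79.7 to 146 CPM, with 2 of 5 tested markers higher and 1 lower. The B-cell list (28.2 to 35.4 against 12.8 to 26.5 CPM) and the dendritic list (2.95 to 5.05 against 0.371 to 2.61 CPM) had 0 markers called. The part of these markers in the result was not tested.

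**Figure D4:**
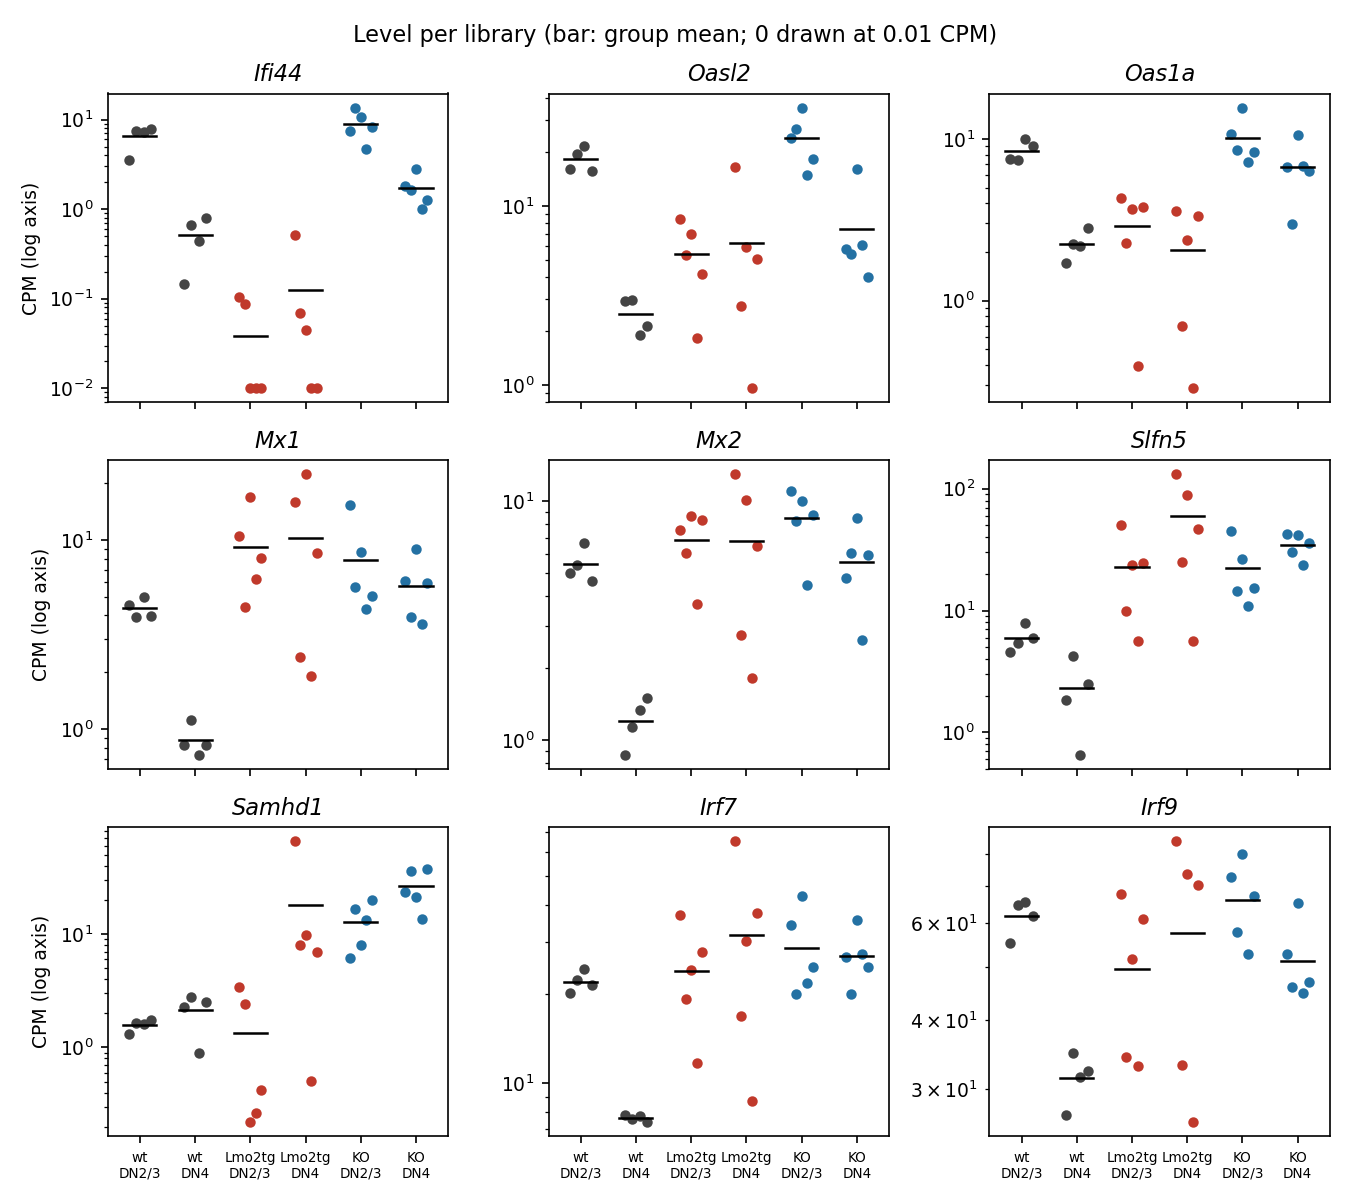
CPM in each library (points, log axis) of the members described library by library, in the 6 groups. Ifi44 is low in every Lmo2tg library, and Mx1, Mx2 and Slfn5 have their lowest libraries in wild-type DN4.

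At DN4 the deletion went with 4 rises and 0 falls, namely Ifi44, Oas1a, Oas1g and Ifit2, beside 5.85% of all tested genes higher and 8.71% lower. At an unadjusted p below 0.05, edgeR gave 5 members higher and 1 lower, and DESeq2 called the same number as edgeR. The median log2 difference was -0.01 over the members and -0.02 over all tested genes. Ifi44 was 1.83, 1.62, 2.82, 1.01 and 1.28 CPM in Ldb1-KO DN4 against 0 to 0.515 CPM in Lmo2tg, without overlap (3.59, SE 0.71, adjusted p = 0.00106), and it kept its call without any single library. Oas1a was 6.71, 2.98, 10.6, 6.75 and 6.29 CPM against 0.287 to 3.59 CPM (1.70, SE 0.50, adjusted p = 0.0226), a call lost without Lmo2tg DN4 replicate 2 (0.0527) or Ldb1-KO DN4 replicate 3 (0.0663). Slfn5 (42.2, 30.2, 41.9, 23.5 and 36.1 CPM), Mx1 (6.07, 3.91, 8.999, 3.60 and 5.95 CPM) and Mx2 (4.73, 6.04, 8.45, 2.63 and 5.92 CPM) overlapped with Lmo2tg and did not pass the test. With only the 2 compared groups in the fit Ifi44 alone was called. Without Ldb1-KO DN4 replicate 3 only Ifi44 was called, without Lmo2tg DN4 replicate 2 there were 2 calls and without Lmo2tg DN4 replicate 1 there were 8. B-cell markers summed to 13.1 to 21.2 CPM against 11.6 to 91.2 CPM in Lmo2tg, and 4 of 6 were lower.

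The stage difference of the Ldb1 effect was called for 0 members by edgeR, with 5 lower at an unadjusted p below 0.05, while DESeq2 called 1, Ifi44. Of all tested genes 1.36% were called at the adjusted threshold, 0.132% higher and 1.22% lower. In the fit with the replicate block within genotype, 10 members were called, all lower at DN4, beside 13.5% of all tested genes. These included Ifi44 (-3.93), Samhd1 (-2.44), Oasl2 (-1.69) and Irf9 (-0.50). Without Lmo2tg DN4 replicate 4, 2 members were called and without Lmo2tg DN4 replicate 5, 1.

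Against wild type, few members were called in Ldb1-KO cells at DN2/3, and most were higher at DN4. At DN2/3, 3 members rose (Oas1g, Cmpk2 and Samhd1) and 0 fell, beside 6.98% and 2.58% of all tested genes, 9.56% in all. At an unadjusted p below 0.05, 7 members rose and 2 fell, without a share of all genes at that threshold. The median log2 difference was 0.27 over the members and -0.01 over all tested genes, and 31 of 46 members were above 0. DESeq2 called these 3 and Slfn5. With only the compared groups in the fit 12 members were called, 10 higher and 2 lower. Of all genes tested in that fit 22.3% were called, 1931 higher and 1106 lower. With transgenic replicates 1 to 3 only 9 members were called, 8 higher and 1 lower. Of all genes tested there 13.9% were called, 1412 higher and 603 lower. Only Oas1g was called when wild-type DN2/3 replicate 1, 2, 3 or 4 was left out. Ifi44, at 4.68 to 13.6 CPM against 3.53 to 7.90 CPM, did not differ beyond its spread (0.45, SE 0.63, adjusted p = 0.682, edgeR), and neither did Oasl2 (0.39, SE 0.50, adjusted p = 0.656). At DN4, 31 members rose and 0 fell, beside 18.2% and 14.4% of all tested genes, with a median log2 difference of 1.23 over the members and 0.03 over all. For 33 of 46 members every Ldb1-KO DN4 library was above every wild-type DN4 library, as for 16.8% of all tested genes. Without wild type DN4 replicate 3, 19 members were called. With transgenic replicates 4 and 5 only 20 were, 43.5%, beside 16.1% of all genes tested.

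The rises in Ldb1-KO DN4 against wild type covered 16 of 20 effectors, 4 of 7 sensors and 3 of 5 signalling genes. Slfn5 (3.92, SE 0.72, adjusted p = 0.000433, edgeR), Samhd1 (3.64, SE 0.89, adjusted p = 0.00418), Mx1 (2.71, SE 0.57, adjusted p = 0.00142) and Mx2 (2.20, SE 0.43, adjusted p = 0.000859) rose without overlap. Samhd1 was 23.3, 36.1, 21.3, 13.5 and 37.5 CPM in Ldb1-KO DN4, against a highest wild-type value of 2.80 CPM. Irf7, at 26.6, 20.01, 35.4, 27.3 and 24.6 CPM, was above every wild-type DN4 library (1.81, SE 0.38, adjusted p = 0.00135), and the 5 libraries were close together. Irf9 rose by 0.71 (SE 0.26, adjusted p = 0.038) with 52.8, 46.04, 65.2, 44.9 and 47.03 CPM, a call lost without any single wild-type DN4 library or without Ldb1-KO DN4 replicate 1, 3 or 5 (adjusted p from 0.0505 to 0.11). Stat2, at 68.8, 69.2, 61.0, 65.2 and 77.6 CPM, lay above all wild-type libraries but did not pass the test (0.23, SE 0.16, adjusted p = 0.285). Oas1g was at least 187-fold higher against the floor in wild-type DN4. In this comparison 3 of 4 double-positive markers were higher (summed level 456 to 1784 CPM against 227 to 367) and 4 of 6 B-cell markers. The mature T-cell list summed to 309 to 624 CPM against 190 to 304 (4 of 5 higher), the plasmacytoid dendritic list to 234 to 470 against 103 to 193 (2 of 5 tested higher) and the myeloid list to 1.46 to 2.76 against 0.349 to 0.482 CPM (2 of 5 tested higher). The part of all these markers in the rise was not tested.

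Within Ldb1-KO, 1 member, Ifit2, rose and 10 fell from DN2/3 to DN4, beside 12.3% and 15.8% of all tested genes, with a median of -0.45. With the replicate block within genotype 4 rose and 26 fell, beside 48.2% of all tested genes called. Ifi44 (-2.38, SE 0.62, adjusted p = 0.00547, edgeR), Oasl2 (-1.68, SE 0.49, adjusted p = 0.0117) and Bst2 (-0.81, SE 0.18, adjusted p = 0.00178) were among the falls without the block. Stat2 (-0.23), Irf9 (-0.37), Mx2 (-0.64) and Isg15 (-0.47) fell with the block and not in the fit without it, and Samhd1 (1.09), Slfn5 (0.79) and Sp100 (0.35) likewise rose with it. Samhd1 was also called without a block when only the 2 groups were in the fit. With replicates 4 and 5 only, 3 members were called, beside 12.7% of all genes tested. The libraries of the stages were apart for Ifi44, at 4.68 to 13.6 CPM against 1.01 to 2.82 CPM. Myeloid markers summed to 20.4 to 31.8 CPM at DN2/3 and 1.46 to 2.76 CPM at DN4, and their part in the falls was not tested.

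Other genes of the pathway were counted from lists that do not hold the members. Transcripts of Ifnb1, Ifna2 and Ifna4 were at or near 0 in every library, with no value above 0.0301 CPM, so the only tested gene among 8 interferon genes was Ifng. Ifng, which codes for interferon gamma, had 3.58 ± 1.99 CPM in wild-type DN2/3 (n = 4), 1.12 ± 0.376 CPM in Lmo2tg DN2/3 and 4.73 ± 1.64 CPM in Ldb1-KO DN2/3 (SD, n = 5). It fell with the transgene at DN2/3 (-1.68, SE 0.46, adjusted p = 0.00656, edgeR) and rose with the Ldb1 deletion there (2.08, SE 0.45, adjusted p = 0.0016). At DN4 it had 0.162 ± 0.127 CPM in wild type, 0.952 ± 0.351 CPM in Lmo2tg and 0.644 ± 0.460 CPM in Ldb1-KO, and Lmo2tg was higher than wild type (2.54, SE 0.53, adjusted p = 0.000358).

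Of 14 tested receptor and Jak-Stat genes, 7 fell and 1 rose from DN2/3 to DN4 in wild type, and in Lmo2tg DN4 against wild type 8 rose and 0 fell. Of all tested genes 24.8% fell and 21.1% rose in the first of these comparisons, and 28.9% rose and 23.5% fell in the second. Ifnar1 rose in Lmo2tg DN4 against wild type (0.52, SE 0.16, adjusted p = 0.00772, edgeR), and Ifnar2 (0.14, SE 0.10, adjusted p = 0.244) and the feedback inhibitor Socs1 (0.34, SE 0.29, adjusted p = 0.328) did not pass the test. None of these 3 was called for the transgene at DN2/3 or for the Ldb1 deletion at either stage. Jak2, with the smallest adjusted p of its list, rose in Lmo2tg DN4 (1.39, SE 0.21, adjusted p = 9.85e-06).

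Of 17 tested sensor adaptors and regulators, 9 rose and 2 fell in Lmo2tg DN4 against wild type, and 1 rose and 6 fell in Lmo2tg DN2/3. Of 42 other tested interferon-induced genes, 26 fell and 0 rose with stage in wild type, 23 rose and 7 fell in Lmo2tg DN4, and 1 rose and 12 fell in Lmo2tg DN2/3. With the Ldb1 deletion 12 rose and 1 fell at DN2/3, and 6 rose and 1 fell at DN4. Beside these, 15.1% of all tested genes rose and 14.4% fell in Lmo2tg DN2/3, 8.87% and 7.22% with the deletion at DN2/3, and 5.85% and 8.71% at DN4. Aim2, a sensor of DNA in the cytosol, had 46.8 ± 7.14 CPM in wild-type DN2/3, 0.711 ± 0.684 CPM in Lmo2tg DN2/3 and 39.9 ± 9.31 CPM in Ldb1-KO DN2/3. At DN4 it had 19.0 ± 6.00, 1.18 ± 1.30 and 24.4 ± 6.00 CPM in the same order. It fell with the transgene at DN2/3 (-6.08, SE 0.65, adjusted p = 7.13e-08, edgeR) and rose with the Ldb1 deletion (5.85, SE 0.64, adjusted p = 2.76e-07). Ifitm3, a membrane protein that blocks virus entry, had 2.81 ± 0.633, 0.564 ± 0.276 and 6.09 ± 0.878 CPM in wild-type, Lmo2tg and Ldb1-KO DN2/3, and rose with the deletion there (3.40, SE 0.32, adjusted p = 4.27e-08). Ifi205, of the same family as Aim2, was at most 0.0507 CPM in any wild-type library and at least 1.197 CPM in any transgenic library, with and without the Ldb1 deletion.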

How the data were processed

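The authors deposited a table of raw counts per gene for 28 libraries. Per the labels' protocols the libraries were made with the TruSeq RNA V2 kit and sequenced in paired-end reads, and the submitters' processing notes name STAR 2.5.2a, featureCounts 1.4.6-p3 and mm10. The sources used here do not name the annotation, the use of strand or the treatment of multi-mapped reads. Counts were tested with edgeR 4.0.16 (R 4.3.3) by the quasi-likelihood F-test with TMM scaling and a filter on low counts by group, with all 6 groups in the fit, and p-values were adjusted over 14371 genes. CPM use TMM-scaled library sizes. On data simulated for Lmo2tg against wild type at DN4 over 14193 genes, 79 of 100 genes changed by 2-fold and 95 of 100 changed by 4-fold were recovered. Only these 200 genes were changed, all with a mean of 1 CPM or more. The simulated noise was independent between genes, while the libraries here deviated over many genes together. The recovery therefore need not hold for these data. No library was a copy of another in its own group, and copies across groups were not looked for.

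Library values are printed for the 3 largest rises and falls among called members in each of 4 comparisons, those of Lmo2tg with wild type and of Ldb1-KO with Lmo2tg at DN2/3 and DN4, where the higher group averaged 1 CPM or more and the groups were separate, and for Irf7, Irf9 and Stat2. The members and the gene lists were chosen with earlier results of these data known. Same-numbered DN2/3 and DN4 libraries deviated together from their group means (r from 0.216 to 0.549 in wild type, 0.566 to 0.764 in Lmo2tg and 0.445 to 0.685 in Ldb1-KO), so the numbers were taken to pair the stages within a genotype. Alternatives were other scaling, filters and samples, DESeq2 1.42.0, replicate blocks and leaving out each library.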

Additional observations from a re-analysis of the deposited data

Results flagged for a closer look

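The 10 genes described library by library and the median over the members were screened in each of the 6 groups for a library far from the rest, and 4 of these 66 sets of values had one, where chance gives about 1 in 20. Oasl2 was 16.1 CPM in Ldb1-KO DN4 replicate 3, while the other libraries of that group were 3.99 to 6.01 CPM. Ifi44 was 3.53 CPM in wild type DN2/3 replicate 1, below the 7.35 to 7.90 CPM of the other libraries. In Lmo2tg DN4 replicate 1, a library with high Cd4 and Cd8a, Ifi44 was 0.515 CPM against 0 to 0.0696 CPM in the others. In the same library Samhd1 was 65.6 CPM against 0.503 to 9.80 CPM in the others.

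The effect of the Lmo2 transgene differed between DN4 and DN2/3, by edgeR's test of the difference itself, for 8 of these genes. The log2 difference between the effects, higher at DN4, was 2.47 for Mx1 (SE 0.74, adjusted p = 0.0193), 2.16 for Mx2 (SE 0.58, adjusted p = 0.0107) and 3.09 for Oasl2 (SE 0.74, adjusted p = 0.00553). For the signalling genes it was 1.93 for Irf7 (SE 0.51, adjusted p = 0.0102) and 1.19 for Irf9 (SE 0.36, adjusted p = 0.0196). It was 5.23 for Ifi44 (SE 1.12, adjusted p = 0.00262), 3.28 for Samhd1 (SE 1.15, adjusted p = 0.0381) and 2.74 for Slfn5 (SE 0.90, adjusted p = 0.0285). Without Lmo2tg DN4 replicate 1 the values were 3.19 for Ifi44 (adjusted p = 0.0725), 1.76 for Samhd1 (0.188) and 2.23 for Slfn5 (0.0718). The calls of Samhd1 and Slfn5 were also lost without several other single libraries. Ifi44 was lower with the transgene at both stages (-7.07 at DN2/3 and -1.84 at DN4), so its value means a smaller fall at DN4 and not a rise. Its counts in Lmo2tg were near the floor at both stages, so the fitted size is uncertain.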

How the results depend on the processing

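No member's difference changed sign under any alternative in a comparison where it was called. Counts of members called moved by over 1.5 times as follows, and the cause was not tested. With DESeq2 the stage difference of the Ldb1 effect had 1 call. With only the compared groups in the fit there were 18 calls for Lmo2tg against wild type at DN4, 1 for Ldb1-KO against Lmo2tg at DN4, 12 for Ldb1-KO against wild type at DN2/3, 0 for stage in Lmo2tg and 18 for the stage difference of the transgene effect. Without the 2 libraries highest in Cd4, an alternative chosen after seeing the data, as are the splits by replicate number, stage in Lmo2tg had 3 calls and the stage difference 16. With transgenic replicates 1 to 3, Ldb1-KO against Lmo2tg at DN4 had 2 and Ldb1-KO against wild type at DN2/3 had 9. With replicates 4 and 5 there were 13 for Lmo2tg against wild type at DN4, 6 for Ldb1-KO against Lmo2tg at DN2/3, 20 for Ldb1-KO against wild type at DN4, 0 for stage in Lmo2tg, 3 for stage in Ldb1-KO and 4 for the stage difference of the transgene effect.

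With the replicate number as a block over all groups, Ldb1-KO against Lmo2tg at DN2/3 had 19 calls; across genotypes the numbers were not taken to pair libraries, since not every same-numbered pair had r over 0.1 (0.0931 to 0.266 for Lmo2tg with Ldb1-KO at DN2/3, where 2 of 5 libraries correlated best with their own number, -0.0911 to 0.516 at DN4, and -0.372 to 0.178 with wild type). With the replicate block within genotype there were 14 calls for stage in Lmo2tg, 30 for stage in Ldb1-KO and 10 for the stage difference of the Ldb1 effect, and no other count moved by over 1.5 times.

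Leaving out each library in turn gave 7 to 10 calls for Lmo2tg against wild type at DN2/3 and 22 to 37 at DN4, 7 to 15 for Ldb1-KO against Lmo2tg at DN2/3 and 1 to 8 at DN4, and 1 to 4 for Ldb1-KO against wild type at DN2/3 and 19 to 34 at DN4. For stage it gave 27 to 33 in wild type, 3 to 12 in Lmo2tg and 8 to 13 in Ldb1-KO, and 17 to 38 and 0 to 2 for the stage differences of the transgene and the Ldb1 effect. The share of all genes called in these fits is not given here. A library left out can change the calls of every gene, so these counts do not set the module apart.

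Over all genes, the stage difference of the Ldb1 effect went from 195 calls to 390 with DESeq2, 1933 with the block within genotype, 85 with compared groups only, 94 without the high Cd4 libraries, 125 with replicates 1 to 3 and 32 with 4 and 5. That of the transgene effect went from 3684 to 7106 with that block, 2146 with compared groups only, 2446 without the high Cd4 libraries and 790 with replicates 4 and 5. Stage in Lmo2tg went from 2208 to 5569 with the block, 321 with compared groups only and 200 with replicates 4 and 5, and stage in Ldb1-KO from 4039 to 6934 with the block, 2577 with replicates 1 to 3 and 1795 with 4 and 5. Ldb1-KO against wild type at DN2/3 went from 1374 to 2449 with the block over all groups and 3037 with compared groups only. With compared groups only, Lmo2tg against wild type at DN4 went from 7532 to 4947 and Ldb1-KO against Lmo2tg at DN4 from 2092 to 681. With replicates 4 and 5 these were 4590 and 1005, Ldb1-KO against Lmo2tg at DN2/3 went from 2312 to 1186, and Ldb1-KO against wild type at DN4 from 4680 to 2273. Oas1g in wild type rests on few counts, 43 at DN2/3 and 0 at DN4.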
